A study of Mus musculus with 7 samples.

Results

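The 76 mouse genes for mitochondrial ribosomal proteins on the array were compared between the palatal shelves of wild-type and Adamts9+/-;bt/bt embryos. They were taken by name, as every gene whose symbol in the platform annotation starts with Mrpl or Mrps followed by a digit, which gave 76 of the 16565 named genes and 110 of the 25695 probe IDs. Palatal shelves are the paired outgrowths that rise above the tongue and fuse into the roof of the mouth, and they were dissected at E13.75 from 3 wild-type C57BL/6 embryos and from 4 embryos with 1 lost copy of Adamts9 and the belted (bt) allele on both copies of Adamts20. Both groups are labelled with the strain C57BL/6 and the wild-type controls carry neither mutation, so the contributions of Adamts9 and of bt cannot be told apart. Total RNA of the whole, untreated shelves of each embryo went onto a single Illumina expression array.

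Mitochondria keep their own ribosome, which translates the few messenger RNAs made from mitochondrial DNA, all of them for membrane subunits of the respiratory chain and ATP synthase. Its RNAs come from mitochondrial DNA, but all of its proteins are encoded in the nucleus, made in the cytosol and imported, so a working mitoribosome needs many separate nuclear genes to be expressed together. Some of these proteins descend from bacterial ribosomal proteins and others are particular to mitochondria, and the names keep an older sorting into large-subunit (Mrpl) and small-subunit (Mrps) proteins that structures of the mammalian mitoribosome later revised for a few.

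Values are log2 units of the authors' deposited table, in which all arrays have nearly the same distribution. No probe is annotated to Adamts9, which was not analysed here, and Adamts20 lay below the limit of detection in both groups (5.72 ± 0.08, SD, n = 3, in wild type and 5.74 ± 0.05, SD, n = 4, in the mutants), so neither gene checked the genotypes. Over all detected features wild-type replicate 3 stood apart from the other wild-type arrays, and correlations over detected features fell to 0.982 within the wild type against 0.992 or more among the mutants. Of the palate mesenchyme markers, 11 of 12 were detected, among them Osr2, Msx1 and Pdgfra, and 4 of the 11 were lower in the mutants. Neuron markers differed most, with 13 of 14 higher in the mutants and a mean level of 6.73 to 7.61 over wild-type arrays against 8.68 to 9.15 over mutant arrays. Wild-type replicate 2 was the lowest in neuron markers, at 6.73 against 7.61 and 7.53 in wild-type replicates 1 and 3, and in skeletal muscle markers, at 7.71 against 8.82 and 8.96, with the mutants at 8.76 to 9.38 in the latter and 1 of 9 muscle genes higher. Endothelial markers were lower for 5 of 9. Of 11 epithelium markers 2 were higher and 1 lower, of 8 erythroid markers 1 was lower, and of 7 leukocyte markers 1 was higher. Over all detected features 16.8% were higher and 19.8% lower. With raw intensities centred on array medians, 8 mesenchyme, 7 endothelial, 5 erythroid and 3 epithelium markers were lower. Then 13 of 14 neuron markers, 1 epithelium and 1 leukocyte marker were higher. Of all features 36.2% were then lower and 7.6% higher. The part of these markers in the results below was not tested. In such whole-tissue RNA, fewer cells of a type and less RNA per cell cannot be told apart.

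In the deposited scaling, transcripts of the mitochondrial ribosome differed little between the genotypes. Of the 76 genes, 70 were detected, meaning that the mean over the 7 arrays lay above 5.86, the 40th percentile of all features. In the mutants 12 of the 70 rose in the deposited scaling, 2 fell and 56 did not pass the test (limma, Benjamini-Hochberg adjusted p under 0.05 over all 10869 detected features). That was 20% of the genes, 17.1% higher and 2.86% lower, against 36.6% of all detected features, 16.8% higher and 19.8% lower. The share that rose was thus near that of all features and the share that fell was below it. The median log2 difference, mutant minus wild type, was 0.04 for the 70 genes and -0.0035 for all features. All 70 differences lay between -0.44 and 0.48, or from 1.36-fold lower to 1.40-fold higher, and 0 exceeded 0.5 in size, against 14.1% of all features. The median size of the difference was 0.12 for the genes and 0.17 for all features. Within-group scatter was also a little smaller for the genes, with a median SD of 0.084 in wild type and 0.075 in the mutants, against 0.097 and 0.091 for all features. With each array of raw intensities centred on its median in place of the deposited scaling, 0 genes were higher and 32 were lower, against 7.6% and 36.2% of all features. The genes' median was then -0.21, that of all features -0.14, and 24 of the 70 genes lay above the latter and 46 below.

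**Figure D1:**
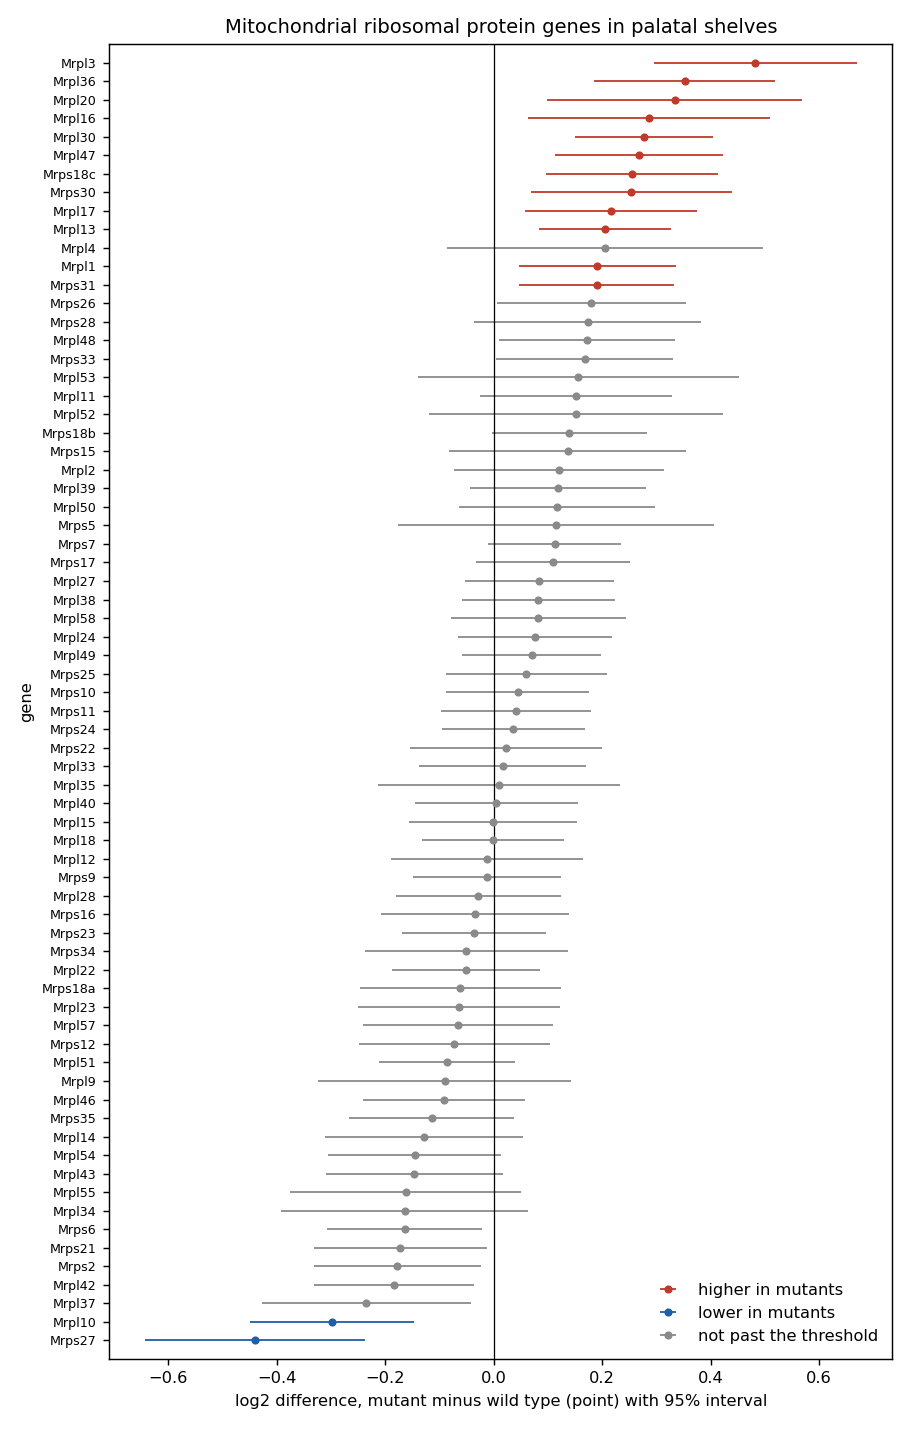
Each detected mitochondrial ribosomal protein gene is shown by its log2 difference, mutant minus wild type (point), with its 95% interval from limma (line; 3 wild-type and 4 mutant arrays). The 12 genes past the threshold upward are red, the 2 downward are blue and the other 56 are grey, and all points lie within 0.5 of 0 in the deposited scaling. Centring on array medians leaves 0 genes higher and 32 lower, against 7.6% and 36.2% of all features.

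**Figure D2:**
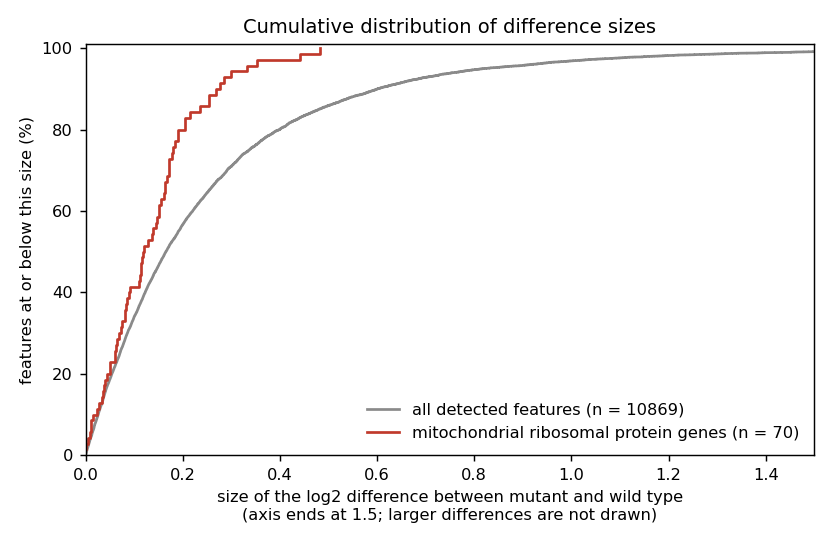
The curves give the percentage of features whose log2 difference between mutant and wild type is at or below the size on the x axis, for the 70 mitochondrial ribosomal protein genes (red) and all 10869 detected features (grey). The red curve ends before 0.5, where 14.1% of all features still lie to the right.

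Averaged over the 70 genes, the mean level was 9.06, 9.11 and 9.08 for the wild type (replicates 1 to 3) against 9.11, 9.10, 9.13 and 9.16 for the mutants (replicates 1 to 4). The groups overlapped, since wild-type replicate 2 lay above mutant replicates 1 and 2. For single genes, the groups did not overlap in 23 of 70 (32.9%), with the mutants above in 15 and below in 8. Over all features this held for 42.6%, with 19.7% above and 22.9% below.

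The upstream sequences of 5 genes past the threshold and of Mrpl12, a gene whose difference was near 0 in the deposited scaling, are printed because each holds a match to a motif known from promoters of nuclear genes for mitochondrial proteins. They are the 250 bases before the annotated start from RefSeq, build GRCm38.p6, 5′ to 3′ on the gene's strand, with the matched motifs in capitals.
Mrpl3, chr9:105053018-105053267 (+): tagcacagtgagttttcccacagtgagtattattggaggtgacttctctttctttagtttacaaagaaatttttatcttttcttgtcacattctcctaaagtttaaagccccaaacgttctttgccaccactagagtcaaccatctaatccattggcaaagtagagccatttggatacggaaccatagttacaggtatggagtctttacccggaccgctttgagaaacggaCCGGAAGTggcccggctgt
Mrpl36, chr13:73330759-73331008 (+): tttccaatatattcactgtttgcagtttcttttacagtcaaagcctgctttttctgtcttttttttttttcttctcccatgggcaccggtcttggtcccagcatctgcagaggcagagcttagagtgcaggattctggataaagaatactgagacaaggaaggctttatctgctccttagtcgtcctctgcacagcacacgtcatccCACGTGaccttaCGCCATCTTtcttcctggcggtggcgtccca
Mrpl30, chr1:37890227-37890476 (+): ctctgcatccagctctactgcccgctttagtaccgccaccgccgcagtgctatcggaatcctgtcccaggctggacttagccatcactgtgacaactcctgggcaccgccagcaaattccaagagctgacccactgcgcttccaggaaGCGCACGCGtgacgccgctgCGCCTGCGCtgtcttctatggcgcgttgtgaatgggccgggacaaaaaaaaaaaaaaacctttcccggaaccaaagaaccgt
Mrps18c, chr5:100798509-100798758 (+): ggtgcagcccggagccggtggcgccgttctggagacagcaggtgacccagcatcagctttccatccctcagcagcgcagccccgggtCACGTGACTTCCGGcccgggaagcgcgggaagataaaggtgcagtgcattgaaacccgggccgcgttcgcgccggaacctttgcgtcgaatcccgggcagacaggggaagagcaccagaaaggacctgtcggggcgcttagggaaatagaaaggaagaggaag
Mrps27, chr13:99344536-99344785 (+): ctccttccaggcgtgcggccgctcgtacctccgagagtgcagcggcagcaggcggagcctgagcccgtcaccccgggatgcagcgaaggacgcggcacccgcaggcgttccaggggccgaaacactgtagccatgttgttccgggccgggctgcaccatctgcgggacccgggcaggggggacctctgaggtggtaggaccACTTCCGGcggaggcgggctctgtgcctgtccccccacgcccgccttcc
Mrpl12, chr11:120484387-120484636 (+): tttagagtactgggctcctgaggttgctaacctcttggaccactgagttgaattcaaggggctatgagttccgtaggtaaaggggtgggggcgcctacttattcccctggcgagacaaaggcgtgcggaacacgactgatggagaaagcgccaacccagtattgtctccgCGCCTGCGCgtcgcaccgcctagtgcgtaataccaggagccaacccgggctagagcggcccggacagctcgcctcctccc
The motifs were searched on both strands of these 250 bases, for the 67 of 76 genes with an entry and for 17492 protein-coding genes. The capitals mark an ETS motif (CCGGAAGT) in Mrpl3, Mrps27 and Mrps18c, an E-box (CACGTG) in Mrpl36 and Mrps18c, an NRF1 motif (GCGCANGCG, N being any base) in Mrpl30, where it occurs at 2 places, and in Mrpl12, and a YY1 motif (AAGATGGCG) in Mrpl36. The E-box and the ETS motif of Mrps18c lie side by side and share no base, and the E-box and the YY1 motif of Mrpl36 are likewise apart. ETS-family factors such as GABPA and the factor NRF1 are known to act at promoters of nuclear genes for mitochondrial proteins. The ETS motif stood in 10 of the 67 genes (14.9%) against 4.26% of all protein-coding genes, and the NRF1 motif in 12 (17.9%) against 8.0%. The E-box was found in 5 genes (7.46%), close to its 7.61% over all genes, and the YY1 motif in 2 genes, Mrpl36 and Mrps11 (2.99% against 0.84%). Of the 13 genes past the threshold that have an entry, 3 hold the ETS motif, 3 the NRF1 motif, 3 the E-box and 1 the YY1 motif. In the deposited scaling, the motifs thus stand upstream of genes that rose (Mrpl3), that fell (Mrps27) and that did not pass the test (Mrpl12). A match is only a description of the sequence.

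Among large-subunit proteins of bacterial descent, Mrpl3 showed the largest rise. The bacterial counterpart of this protein lies close to the peptidyl transferase centre, where amino acids are joined. Mrpl3 (chromosome 9) read 8.51, 8.65 and 8.81 in wild-type embryos against 9.07, 9.23, 9.07 and 9.18 in mutant embryos. Every mutant array lay above every wild-type array, and wild-type replicate 3 came closest to the mutants. The log2 difference was 0.48 (SE 0.083, 95% interval 0.29 to 0.67, 1.40-fold, limma adjusted p = 0.00214). The exact two-sided permutation p was 0.0286, the smallest that the 35 splits of 7 arrays can give. Mrpl3 stayed positive, at 0.18, with arrays centred on medians, but was then not past the threshold.

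Mrpl36 encodes one of the smallest proteins of the large subunit. Its levels were 9.96, 10.13 and 10.06 in wild type and 10.50, 10.32, 10.48 and 10.32 in the mutants, without overlap. The difference was 0.35 (SE 0.074, limma adjusted p = 0.0058, 1.28-fold), and it was 0.12 with centred arrays. Mrpl30 was at 9.09, 9.07 and 9.11 in wild type and 9.39, 9.30, 9.39 and 9.39 in the mutants. It was higher by 0.28 (SE 0.056, limma adjusted p = 0.00491), a difference that turned to -0.03 with centred arrays. Centred values here and below stand against a median of -0.14 for all features. Mrpl3, Mrpl36 and Mrpl30, all of the large subunit, passed the threshold in 13 of 15 alternative analyses, and were not past it with centred arrays. The other analysis kept a single wild-type array, so its spread came from the mutants only, and all 14 calls were lost there.

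The other genes of this class that rose did so by 0.19 to 0.33. Mrpl20, whose bacterial counterpart is needed early in assembly of the large subunit, read 9.49, 9.53 and 9.41 in wild type and 9.74, 9.58, 9.87 and 10.04 in the mutants (0.33, SE 0.10, limma adjusted p = 0.0332). With centred arrays the difference was 0.044 (limma adjusted p = 0.787), and the call held in 7 of 15 alternative analyses. Its mutant arrays were spread more widely than its wild-type arrays. Mrpl16, a neighbour of the tRNA sites in bacterial ribosomes, read 7.93, 7.79 and 7.76 against 7.98, 7.98, 8.14 and 8.35. Its lowest mutant arrays lay just above wild-type replicate 1, and the difference of 0.29 (SE 0.098, limma adjusted p = 0.049) turned to -0.0090 with centred arrays. The call of Mrpl16 held in 5 of 15 alternative analyses. Mrpl47, of the family of bacterial L29 near the exit of the peptide tunnel, was at 7.88, 8.04 and 8.08 in wild type and 8.20, 8.30, 8.26 and 8.31 in the mutants. The groups were apart by a narrow gap, and the difference of 0.27 (SE 0.068, limma adjusted p = 0.0145) turned to -0.04 with centred arrays. The call of Mrpl47 held in 11 of 15 alternative analyses. Mrpl17 (0.22), Mrpl13 (0.21) and Mrpl1 (0.19), the last known for the mobile stalk through which spent tRNA leaves, are named here after their values were seen. All 3 rose without overlap of the groups, and with centred arrays they stood at -0.02, -0.08 and 0.01, against -0.14 for the median of all features. Their limma adjusted p was 0.0386, 0.0168 and 0.0434, and their calls held in 7, 11 and 5 of 15 alternative analyses.

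Mrpl10 fell. It is the base of the other stalk of the large subunit, which carries copies of Mrpl12 and recruits translation factors. Mrpl10 (chromosome 11) was among the brighter genes, at 10.39, 10.36 and 10.20 in wild type and 10.08, 9.97, 10.02 and 9.99 in the mutants. The groups did not overlap, and wild-type replicate 3 again lay nearest to the mutants. The difference was -0.30 (SE 0.067, 95% interval -0.45 to -0.15, 1.23-fold lower, limma adjusted p = 0.00797), and it was larger with centred arrays, at -0.53. Mrpl12, its partner in the stalk, which also binds mitochondrial RNA polymerase, read 10.66, 10.67 and 10.52 in wild type and 10.46, 10.71, 10.58 and 10.68 in the mutants. These groups overlapped fully, with a difference of -0.01 (SE 0.078, 95% interval -0.19 to 0.17). With centred arrays Mrpl12 was lower, at -0.25 (limma adjusted p = 0.0438). In all, 9 of the 27 detected large-subunit genes of bacterial descent rose and 1 fell, 37% called against 36.6% of all features. With centred arrays 0 of them were higher. Mrpl9, Mrpl10, Mrpl12, Mrpl14, Mrpl18, Mrpl22, Mrpl23, Mrpl28, Mrpl33, Mrpl34 and Mrpl55 were then lower, where 36.2% of all features were lower. The sorting by structure was made after the values were seen.

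Large-subunit proteins particular to mitochondria were 18 detected genes, of which 1 rose and 0 fell (limma) in the deposited scaling, 5.56% called against 36.6% of all features. With centred arrays Mrpl37, Mrpl40, Mrpl42, Mrpl43, Mrpl46, Mrpl49, Mrpl54 and Mrps18a of this class were lower, where 36.2% of all features were lower. The gene that rose was Mrps30, named for the small subunit but placed in the large one by structures of the mammalian mitoribosome. It read 9.47, 9.65 and 9.72 in wild type and 9.95, 9.76, 9.95 and 9.79 in the mutants (0.25, SE 0.082, limma adjusted p = 0.0384; -0.03 with centred arrays). The gap between the highest wild-type and the lowest mutant array was narrow, and the call held in 7 of 15 alternative analyses. Mrpl58, also known as ICT1, a peptidyl-tRNA hydrolase that frees stalled ribosomes, differed by 0.08 (95% interval -0.08 to 0.24). With centred arrays it was at -0.21 and not past the threshold (limma adjusted p = 0.105). Mrpl42 and Mrpl37 were just outside the threshold on the low side, at -0.18 (limma adjusted p = 0.0546) and -0.23 (limma adjusted p = 0.0578). Mrpl42 was past it with background correction and quantile normalization of the raw intensities, with limma-trend and with every probe ID as a feature. Mrpl37 was past it without wild-type replicate 3. With centred arrays both Mrpl42 and Mrpl37 were past it, at -0.39 and -0.51 (limma adjusted p = 0.00491 and 0.00473). Mrpl44, a member of this class known for a fold related to RNase III, has no annotated probe and was not analysed here.

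Of the small-subunit genes of bacterial descent, 1 of 15 detected rose and 0 fell (limma) in the deposited scaling, 6.67% called against 36.6% of all features. With centred arrays Mrps2, Mrps6, Mrps9, Mrps10, Mrps11, Mrps12, Mrps16 and Mrps21 were lower, where 36.2% of all features were lower. The gene that rose was Mrps18c, at 9.66, 9.65 and 9.79 in wild type and 9.87, 9.88, 10.04 and 10.02 in the mutants (0.25, SE 0.070, limma adjusted p = 0.0201; -0.02 with centred arrays). Its lowest mutant arrays lay just above wild-type replicate 3, and its call held in 8 of 15 alternative analyses. Mrps12, the counterpart of a bacterial protein that helps to monitor codon pairing and a known site of streptomycin resistance in bacteria, read 10.03, 10.21 and 9.93 against 9.97, 10.04, 9.91 and 10.03. The groups overlapped, and the difference was -0.07 (95% interval -0.25 to 0.10). With centred arrays Mrps12 was lower, at -0.32 (limma adjusted p = 0.0220). Mrps16, in which a human variant impairs mitochondrial translation, differed by -0.03 (95% interval -0.21 to 0.14). It was likewise lower with centred arrays, at -0.32 (limma adjusted p = 0.0157). Mrps7, whose bacterial counterpart organizes the head of the small subunit, read 9.40, 9.43 and 9.35 against 9.51, 9.51, 9.48 and 9.52. Its groups did not overlap, yet the difference of 0.11 (SE 0.054) did not pass the test (limma adjusted p = 0.137). Mrps2 (-0.18), Mrps6 (-0.16) and Mrps21 (-0.17) were likewise without overlap, below the wild type, and not past the threshold (limma adjusted p = 0.0706, 0.0714 and 0.0869). With centred arrays they were past it, at -0.43, -0.45 and -0.45 (limma adjusted p = 0.00413, 0.00265 and 0.00307). Mrps2 was also past it without wild-type replicate 3.

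Small-subunit proteins particular to mitochondria gave the largest fall. Mrps27 (chromosome 13), a pentatricopeptide repeat protein that binds RNA, read 7.99, 8.08 and 7.74 in wild type and 7.57, 7.44, 7.57 and 7.41 in the mutants. No mutant array reached the wild-type range, and wild-type replicate 3 was the lowest of the wild-type arrays. The difference was -0.44 (SE 0.089, 95% interval -0.64 to -0.24, 1.36-fold lower, limma adjusted p = 0.00498, exact permutation p = 0.0286), and -0.73 with centred arrays. Mrps31 rose, at 8.44, 8.30 and 8.47 against 8.61, 8.62, 8.59 and 8.54 (0.19, limma adjusted p = 0.0425). The call of Mrps31 held in 5 of 15 alternative analyses, and its difference was -0.10 with centred arrays. Mrps22 and Mrps34, both known from human mitochondrial disease, differed by 0.02 (95% interval -0.15 to 0.20) and by -0.05 (95% interval -0.24 to 0.14). In both genes the groups overlapped in the deposited scaling. With centred arrays Mrps22 and Mrps34 were lower, at -0.28 and -0.27 (limma adjusted p = 0.0168 and 0.00927). Of the 10 detected genes of this class, 1 rose and 1 fell in the deposited scaling, 20% called against 36.6% of all features. With centred arrays Mrps22, Mrps23, Mrps27, Mrps34 and Mrps35 were lower, where 36.2% of all features were lower.

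**Figure D3:**
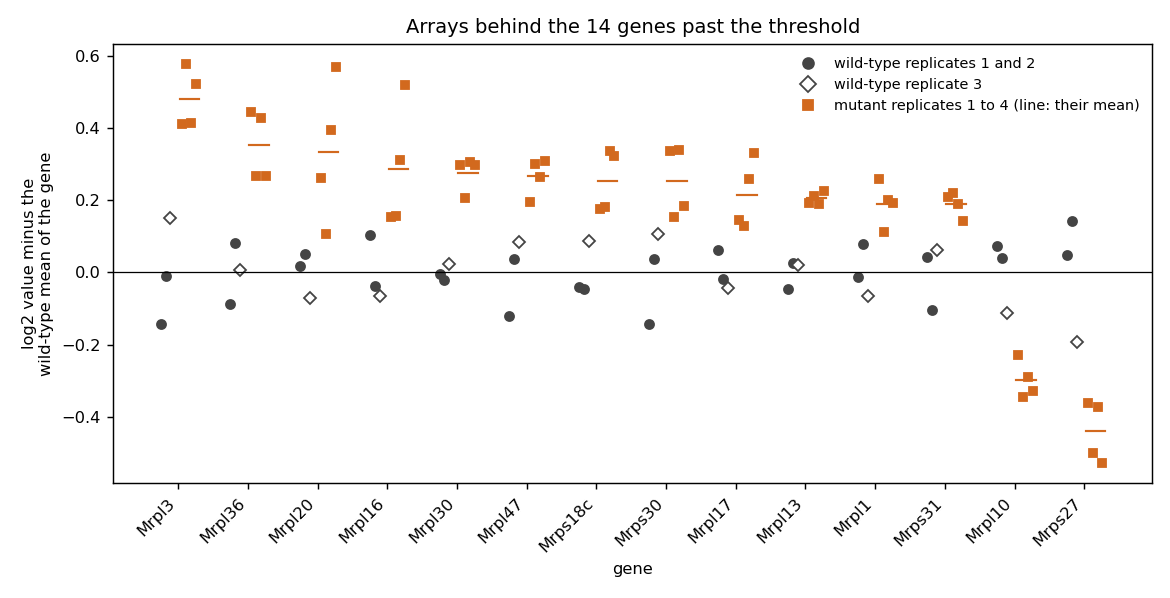
For the 14 genes past the threshold, each array is plotted as its log2 value minus the wild-type mean of that gene, with wild-type replicates 1 and 2 as filled circles, wild-type replicate 3 as an open diamond, and the 4 mutant arrays as squares with a line at their mean. No mutant array overlaps a wild-type array in any of the 14 genes in the deposited scaling, and wild-type replicate 3 is the wild-type array nearest the mutants for both genes that fell. The upward differences of 8 of the 12 genes that rose turn below 0 with centred arrays. All 8 stay above the median of all features, which is then -0.14.

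In the deposited scaling, 10 of 45 detected large-subunit genes rose and 1 fell. Of 25 detected small-subunit genes, 2 rose and 1 fell. These are 24.4% and 12% called, against 36.6% of all features, and 22.2% and 8% higher, against 16.8%. With centred arrays 0 genes of either subunit were higher. Of the 70 genes 32 were then lower, against 36.2% of all features, and those of each class are named above. Whether the subunits differ was not tested. The genes with the smallest differences were Mrpl15 (-0.0013), Mrpl18 (-0.0016) and Mrpl40 (0.0046). Mrpl40, which lies in the region lost in human 22q11.2 deletion syndrome, read 9.13, 9.02 and 9.04 in wild type and 9.07, 9.15, 8.96 and 9.10 in the mutants. Its 95% interval ran from -0.15 to 0.15. With centred arrays Mrpl18 and Mrpl40 were lower, at -0.30 each, and Mrpl15 was at -0.10 and not past the threshold. For all 56 genes not past the threshold in the deposited scaling, the 95% interval lay within 0.5 on either side of 0, with a median half-width of 0.16. Of these 56, 14 differed by under 0.05 and 29 had a positive sign. Their groups did not overlap in 9, and 7 had an adjusted p between 0.0546 and 0.0996. A smaller difference may have been missed at this number of arrays. Simulated differences of 0.3 on these features were recovered in 29.9% of cases and those of 0.5 in 76.1%. That simulation gave 141 calls among 10869 features, far below the 36.6% called in the data. Its adjusted threshold was thus stricter, and its rates do not give the recovery in this comparison.

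The 6 genes below the limit of detection were Mrps14, Mrpl21, Mrpl19, Mrpl45, Mrps36 and Mrpl32, with group means from 5.48 (Mrps36, wild type) to 5.84 (Mrps14, wild type). Mrps36 is now known as a component of the alpha-ketoglutarate dehydrogenase complex and not of the ribosome. They were not tested in the main analysis, and with no filter on dim features 0 of them were past the threshold.

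Some genes were past the threshold only when wild-type replicate 3 was left out. Mrpl4 read 7.95 and 7.97 in wild-type replicates 1 and 2 but 8.50 in replicate 3, above all mutant arrays (8.29, 8.31, 8.46 and 8.31). Mrps5 was likewise at 8.21 and 8.13 against 8.73, with the mutants between 8.45 and 8.48, and Mrpl53 at 10.45 and 10.32 against 10.88. These genes did not pass the test with all arrays (differences of 0.21, 0.11 and 0.16) and were past it without wild-type replicate 3. Without that array 13 genes were higher and 4 lower, of which 8 and 2 were the genes called with all arrays, against 18.6% and 21.3% of all features. Against that array alone, where the spread comes from the mutants only, 0 genes were called, with 6.98% of all features higher and 9.22% lower, and a loss of calls there follows in part from having 1 array and shows nothing about single genes.

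**Figure D4:**
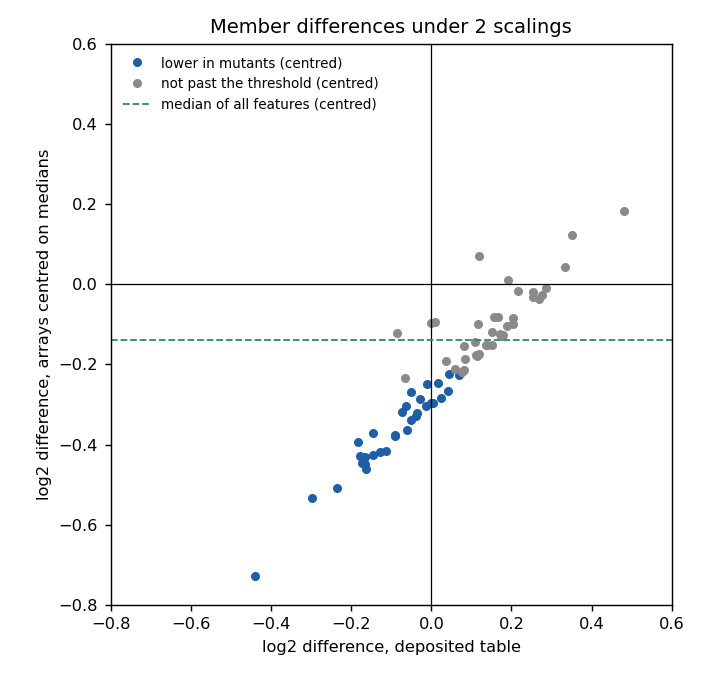
Each of the 70 genes is placed by its log2 difference, mutant minus wild type, in the deposited table (x axis) and with raw log2 intensities centred on each array's median (y axis), coloured blue where it is past the threshold downward in the centred values. The cloud lies below 0 on the y axis for 65 of 70 genes. Of the 70, 24 lie above and 46 below the all-feature median of -0.14 drawn as a dashed line. Mrpl3 at the top right and Mrps27 at the bottom left keep their order.

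Genes that work with the mitochondrial ribosome were read beside it. Of 3 detected mitoribosome proteins with other names, 0 passed the test (limma), with Ptcd3 at -0.19 (adjusted p = 0.111) and Chchd1 at 0.12 (adjusted p = 0.153). Of 23 detected assembly and RNA modification factors, 4 rose and 5 fell. That was 39.1% called, 17.4% higher and 21.7% lower, near the 36.6%, 16.8% and 19.8% of all features. With centred arrays 0 were higher and 9 lower, against 7.6% and 36.2% of all features. Eral1, a GTPase that chaperones the small-subunit RNA, fell from 8.65, 8.70 and 8.46 to 7.92, 7.96, 7.91 and 7.90 (-0.68, SE 0.069, limma adjusted p = 0.000183), a larger difference than that of any of the 70 genes in this scaling. Mrm1, a methyltransferase of the large-subunit RNA, was higher by 0.29 (0.047 and not past the threshold with centred arrays), and Lrpprc, a stabilizer of mitochondrial messenger RNA, and Mrm3 fell by 0.22 and fell by 0.27. Among 11 translation factors, the ribosome recycling factor gene Mrrf rose by 0.72 and the elongation factor gene Tufm fell by 0.21, which was 18.2% called against 36.6% of all features. With centred arrays 1 was higher and 4 were lower of 11, against 7.6% and 36.2% of all features. Mrrf rested on a wide wild-type range, at 6.45, 6.22 and 7.14 against 7.27 to 7.38 in the mutants.

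The mitochondrial aminoacyl-tRNA synthetases and the glutamyl-tRNA amidotransferase, which charge the tRNAs that the ribosome uses, had 7 genes lower and 1 higher among 15 detected, with a median of -0.07. That was 46.7% lower and 6.67% higher, against 19.8% and 16.8% of all features. Iars2 fell from between 7.96 and 8.17 in the 3 wild-type arrays to between 7.31 and 7.44 in the 4 mutant arrays (-0.68, SE 0.071, limma adjusted p = 0.000194). Pars2, Ears2 and Sars2 fell by 0.32, fell by 0.35 and fell by 0.34. With centred arrays 8 were lower and 0 higher, where 36.2% of all features were lower and 7.6% higher. Oxidative phosphorylation genes, whose mitochondrially encoded partners this ribosome makes, had 19 of 74 detected genes higher and 0 lower with a median of 0.05 in the deposited scaling. That was 25.7% higher, where 16.8% of all features were higher and 19.8% lower. With centred arrays 1 was higher and 29 were lower, where 7.6% of all features were higher and 36.2% lower. Cox6c (0.38), Atp5c1 (0.40), Sdhb (0.34) and Ndufv1 (0.28) were the members with the smallest p. The probes of the array include none for the genes of mitochondrial DNA in the annotation used.

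Of 11 genes for copying and transcribing mitochondrial DNA, 1 rose and 2 fell, 27.3% called against 36.6% of all features. With centred arrays 0 were higher and 5 lower, against 7.6% and 36.2% of all features. Polg, the mitochondrial DNA polymerase, fell by 0.69 and the transcription and packaging factor gene Tfam fell by 0.21, while Ssbp1, a single-strand binding protein, was higher by 0.22 but at -0.07 with centred arrays. Among 7 detected regulators of mitochondrial gene expression, Esrra was higher by 0.24 (0.027 and not past the threshold with centred arrays), and Nrf1 and Gabpa, which bind the NRF1 and ETS motifs printed above, stood at -0.07 and -0.08 without passing the test (limma adjusted p = 0.371 and 0.361). Cytoplasmic ribosomal protein genes gave 3 higher and 2 lower of 53 detected, 9.43% in all against 36.6% of all features, with a median of 0.03. With centred arrays they gave 0 higher and 11 lower of 53, against 7.6% and 36.2% of all features. Whether these lists differ from the mitochondrial ribosomal protein genes was not tested.

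**Figure D5:**
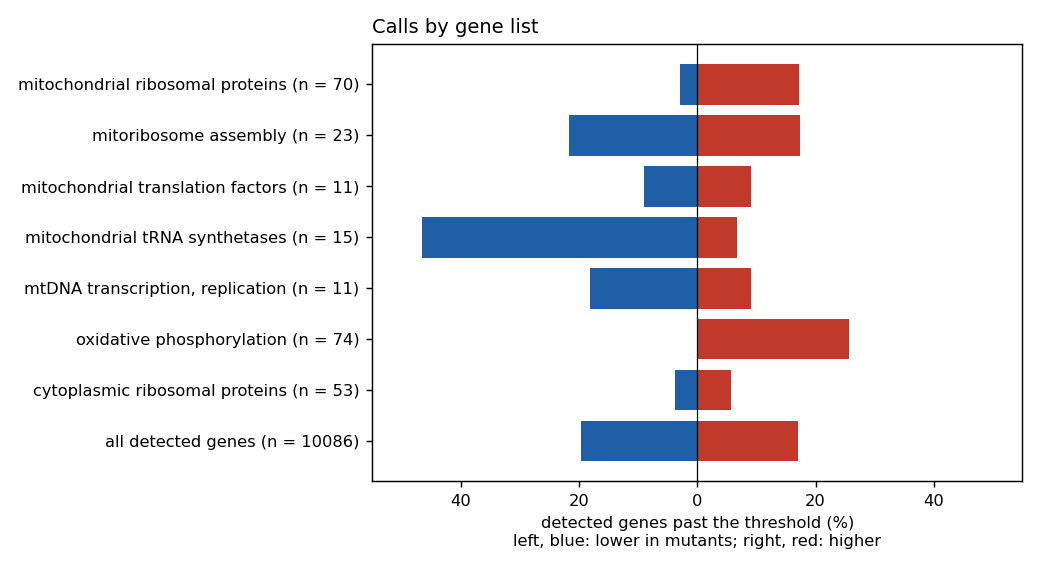
Bars give the percentage of detected genes of each list that are past the limma threshold, lower in the mutants to the left (blue) and higher to the right (red), with the number of detected genes in the label. Mitochondrial ribosomal protein genes reach 17.1% higher and 2.86% lower, against 17% and 19.7% of all detected genes. The directions of this list and of oxidative phosphorylation turn to mainly lower when arrays are centred on their medians. All features are then also mainly lower, with 7.6% higher and 36.2% lower.

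Many mitochondrial ribosomal protein genes start next to another gene. In the RefSeq table of 300-base windows around gene starts, 22 of the 67 genes with an entry (32.8%) overlapped the window of a gene on the opposite strand, against 7.72% of 17492 protein-coding genes. Of the 22 partner entries, 18 were detected and 16 of these were not mitochondrial ribosomal protein genes, with 3 higher, 5 lower and 8 not past the threshold. Over all detected features 16.8% were higher and 19.8% lower, and whether the partners differ from them was not tested. Mrpl47 and its partner Ndufb5, a complex I subunit gene, were both higher in the deposited scaling, by 0.27 and 0.40, with Mrpl47 at -0.04 when arrays were centred. Mrps18c was higher by 0.25 (-0.02 with centred arrays) while its partner Helq, a DNA helicase gene, fell from 6.87, 6.88 and 6.77 to 5.93, 5.95, 6.20 and 6.23 (-0.77, limma adjusted p = 0.000319). The genes of a pair thus moved together in the first case and apart in the second. Mrps12 shares its start region with Sars2, and there the synthetase gene fell by 0.34 while Mrps12 was at -0.07 and did not pass the test. With centred arrays Mrps12 was lower, at -0.32. Mrps7 stood at 0.11 beside Gga3 at -0.45, and Mrpl48 at 0.17 beside Rab6a at 1.05, with only the partner past the threshold in both pairs. Mrpl46 and Mrps11, which are partners of each other, stood at -0.09 and 0.04 and neither passed the test. With centred arrays both were lower, at -0.38 and -0.27. These pairs were chosen after their values were seen.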

How the data were processed

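RNA of 7 samples, 3 wild-type and 4 mutant embryos with 1 array each, was measured; the series' design text describes separate embryos. The sample files hold linear probe intensity as deposited by the authors, not normalized between arrays as their values show. The authors' deposited series table holds log2 values of the same arrays, with ranks equal to those of the intensity (Spearman 1) and a common feature median of 6.07; the normalization, scanner software and background handling are not given in the sources used. Raw upper quartiles ran from 230.1 to 269.8 in wild type and from 185.0 to 216.5 in the mutants, and precision is limited by the small number of arrays.

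Probe IDs with identical rows of values were joined, giving 18116 features, of which 10869 above the 40th percentile (5.86) were tested with limma 3.58.1 in R 4.3.3 (lmFit and eBayes, 2 groups, two-sided, Benjamini-Hochberg, threshold 0.05). Each of the 76 genes had 1 feature, 22 of them read by several probe IDs. Genes were named by the platform annotation, and all 76 gene IDs and symbols matched the GRCm38 gene table. Exact permutation tests covered the 35 splits of the arrays. Named genes were, in each direction, the 8 largest differences past the threshold without overlap, the landmark genes, the 3 smallest differences and up to 4 genes of each other mitochondrial or ribosomal list by smallest p. The members and lists were chosen with earlier results of these data known. On simulated data made from the 10869 features, the fit was tested and gave 4.96% false among 141 calls. Alternatives were normexp (offset 50) with quantile normalization of the intensities, centring on array medians, other filters, each probe ID as a feature, limma-trend, the replicate number as a block, wild-type replicate 3 alone, and each array left out. Same-numbered arrays did not deviate together (r = -0.20, -0.16 and 0.06, against -0.095 to 0.21 for other pairs). With so few arrays this cannot exclude that the numbers pair embryos. Promoter windows were searched with Python 3.11.15 and pandas 2.3.3.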

Additional observations from a re-analysis of the deposited data

Results flagged for a closer look

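In 5 of 70 detected genes 1 of the 4 mutant arrays lay far from the other 3, with a gap to the nearest of them, relative to the whole range, above Dixon's 95% critical value. Chance flags about 1 in 20 such groups. Mrpl30 was at 9.30 in mutant replicate 2 against 9.39 in the others, and that array still lay above all wild-type arrays. Mrpl4 was at 8.46 in mutant replicate 3 against 8.29 to 8.31. Mrpl11 was at 9.23 in mutant replicate 3 against 9.15 to 9.16. Mrpl39 was at 6.27 in mutant replicate 1 against 6.41 to 6.43, and Mrpl54 at 10.29 in mutant replicate 1 against 10.44 to 10.47.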

How the results depend on the processing

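With raw log2 intensities centred on array medians, genes called higher went from 12 to 0 and lower from 2 to 32, their median to -0.21, and all features called to 826 higher and 3931 lower. Positive differences went from 41 of 70 genes to 5, while the median of all features went to -0.14. Among genes called in either scaling and named by rule or for their call, Mrpl16 (-0.0090), Mrpl30 (-0.026), Mrpl47 (-0.036), Mrps18c (-0.018), Mrps30 (-0.031), Mrpl17 (-0.018), Mrpl13 (-0.083), Mrps31 (-0.10), Mrps22 (-0.28), Mrpl40 (-0.30) and Ssbp1 (-0.069) changed sign; the cause was not tested. Against wild-type replicate 3 alone, an arm of 1 array whose loss of calls follows in part from that, 0 genes were higher and 0 lower, with 759 and 1002 of all features, and the 7 other mitochondrial lists had 8 genes called in place of 42. With the replicate number as a block, 3 genes were higher and 2 lower, against 11.5% and 14.6% of all features, and the other lists had 17 called. Whether the numbers pair embryos is not settled. Every probe ID as a feature gave 3049 higher and 3257 lower over all, more features by construction. Leaving out 1 array gave 3 to 13 genes higher and 2 to 4 lower, and 18 to 49 in the other lists. The shares of all features moved as well, from 11.8% to 18.6% higher and from 15.1% to 21.3% lower. The 3 higher were without wild-type replicate 1, and there were 5 without mutant replicate 3, 5 without mutant replicate 4 and 7 without wild-type replicate 2. The 2 genes that fell, Mrpl10 and Mrps27, kept their calls in 14 of 15 alternatives, all but wild-type replicate 3 alone. Normexp with quantile normalization gave 12 higher and 3 lower, against 16.9% and 19.8% of all features. Limma-trend gave 9 and 3, against 16.8% and 19.8%, and no filter gave 10 and 2, against 9.8% and 11.6%.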
